A study of Sus scrofa with 40 samples.

Results

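Regenerated coronary endothelial cells of pigs fed high cholesterol (CHL) were compared with regenerated cells of control pigs, each sample being 1 primary culture hybridised to 1 Affymetrix porcine genome array. The comparison holds the 6 CHL and 8 control cultures labelled as regenerated, 14 of the 40 arrays of the study. The study as a whole set native against regenerated cells in 3 diet groups of female farm pigs aged 4 months, namely control, CHL and a group rich in polyunsaturated fatty acids (FO). Regenerated cells were scraped from the stretch of the left anterior descending artery that had been denuded of endothelium in the living animal, and native cells from the left circumflex artery. All cultures were grown for 10 days on collagen without passage, to about 80% confluence. The time since denudation, the composition of the feed and its duration are not given in the sources used here. The 2 groups share the denudation, the artery, the sex, the age and the culture. They differ by the feed and, for 5 of the controls, by the style of the sample labels, described below. The cells had left the animal and its blood lipids for 10 days when RNA was taken.

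Endothelial cells line the artery, keep blood from clotting and relax the vessel by releasing nitric oxide. When the lining is stripped, neighbouring endothelial cells divide and cover the bare wall, and such regrown cells are known for a weaker release of nitric oxide. Cells that hold enough cholesterol keep the genes of cholesterol synthesis and uptake low through the sterol sensor SREBP and its INSIG anchors, whereas excess sterol turns on export genes through liver X receptors.

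Signals were read as log2(signal + 16), and each level or difference below is on that scale unless a fold is named. The arrays were scaled alike, with a 2% trimmed mean signal of 500.1 on each, and correlations between the 14 arrays ran from 0.827 to 0.982. The 3'/5' signal ratio of actin, which is high where RNA is degraded, ran from 1.47 to 2.87 in CHL and from 1.33 to 6.89 in 7 controls. That of GAPDH ran from 1.03 to 1.71 in CHL and from 1.13 to 1.48 in the same controls. Control replicate 6 had ratios of 264 and 1005 and the lowest median signal (75.8), so the comparison of CHL with control regenerated cells was also fitted without it. The comparison of the diet differences between cell states and that of FO with control kept it. Labels of 5 controls carry MA numbers, whereas those of the other 3 controls and of all 6 CHL cultures name the artery. This label style is a possible batch that only controls span, and a difference from the 3 artery-named controls alone is given where it is over 1.5 times larger or smaller, or of the other sign. These 3 include control 6, and some list medians against artery-named controls are also given without it. For many values, an array whose omission does the same is also named. Of the endothelial marker list, 11 of 26 genes were measured, among them PECAM1 (12.9 ± 0.26, SD, n = 8, in controls), CDH5 and NOS3. The dimmest of the 11 in controls were VWF (6.00 ± 0.31) and FLT1 (6.28 ± 0.92). The mean level of the list ran from 9.82 to 10.7 in controls and from 9.77 to 10.9 in CHL. Fewer cells of a type and less RNA per cell cannot be told apart in such cultures.

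No probe set passed the test. Among 17999 probe sets tested with limma, 0 were higher and 0 lower in CHL at an adjusted p of 0.05 (0% called in either direction), and the smallest adjusted p was 0.0693. An unadjusted p under 0.05 was reached by 1662 probe sets (9.23%), of which 895 were higher (4.97%) and 767 lower (4.26%), where 899.95 are expected by chance alone if probe sets do not differ. Leaving out control 3 or control 8 gave 3 calls each, and without control 6 there were 0 calls and 1476 probe sets with an unadjusted p under 0.05. The median difference over all probe sets was 0.02, and 52.5% of them were higher in CHL. The levels of the 2 groups did not overlap for 25 probe sets higher in CHL (0.139%) and 15 lower (0.0833%). All single genes below therefore have values without a call, and their adjusted p-values come from limma over all 17999 probe sets.

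The genes with a symbol and the smallest p on the higher side were TMOD3, EMP1, CH242-38B5.1, PPP3CA, MVK and LOC100156139. EMP1 encodes epithelial membrane protein 1, a membrane protein of the claudin superfamily. Its level was 4.62 at the lowest, 5.60 at the median and 7.73 at the highest in controls, and 6.74, 8.18 and 9.98 in CHL. All 6 CHL arrays lay above the control median and 3 lay above every control, with control 3 the highest control. The difference was 2.44 ± 0.57 (SE, 95% interval 1.22 to 3.65), a 5.41-fold higher mean, with an adjusted p of 0.265.

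TMOD3 encodes tropomodulin 3, which caps the slow-growing end of actin filaments. It ran from 7.86 over a median of 8.63 to 9.71 in controls and from 9.59 over 10.07 to 10.52 in CHL. The groups overlapped in 1 control array only, number 3, which lay within the CHL range. The difference was 1.40 ± 0.31 (adjusted p = 0.194), and a second TMOD3 probe set differed by 1.02.

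PPP3CA, the catalytic subunit of the phosphatase calcineurin, had a median of 11.46 in controls and 12.68 in CHL, with a difference of 1.01 ± 0.26 (adjusted p = 0.290). Its other probe set differed by 0.03, so the gene's probe sets disagree. CH242-38B5.1 is a clone name, and its title in the deposited tables is that of the mitochondrial 3-hydroxy-3-methylglutaryl-CoA synthase 2, an enzyme of ketone body synthesis. Its median was 5.50 in controls and 6.50 in CHL, 5 of 6 CHL arrays lay above every control, and the difference was 1.06 ± 0.25 (adjusted p = 0.265). LOC100156139, titled as similar to a tripartite motif-containing protein, had medians of 5.06 and 6.28 and a difference of 1.0 ± 0.27 (adjusted p = 0.314), and 0.59 against artery-named controls.

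On the lower side the smallest p-values belonged to DNAJC14, PLAT, IL18, LOC100157802, COL12A1 and CEP290. PLAT encodes tissue plasminogen activator, the protease that endothelial cells release to start the breakdown of fibrin. Its level was 11.75 at the lowest, 12.03 at the median and 12.55 at the highest in controls, and 10.48, 11.24 and 11.71 in CHL. Every CHL array lay below every control array, and CHL 4 was the lowest. The difference was -0.88 ± 0.19 (95% interval -1.28 to -0.48), a mean 1.84-fold higher in controls, with an adjusted p of 0.178.

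DNAJC14 encodes a J-domain co-chaperone of the endoplasmic reticulum. Levels were 9.62, 9.85 and 10.30 in controls (lowest, median, highest) and 8.51, 8.98 and 9.61 in CHL. Here too the groups did not overlap, by a narrow margin between CHL 3 and control 3. The difference was -0.88 ± 0.18 (adjusted p = 0.149).

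IL18 is a cytokine of the interleukin 1 family that drives interferon gamma in lymphocytes. It ran from 7.79 over a median of 8.80 to 10.27 in controls and from 5.86 over 6.95 to 8.81 in CHL. CHL 1, 4, 5 and 6 lay below every control, and CHL 3 lay at the control median. The difference was -1.84 ± 0.47, a mean 3.58-fold higher in controls (adjusted p = 0.293).

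COL12A1, a collagen chain that sits on the surface of collagen fibrils, had medians of 12.18 in controls and 11.25 in CHL and a difference of -0.93 ± 0.26 (adjusted p = 0.345). CEP290, a protein of the base of the primary cilium, differed by -0.72 ± 0.20 (adjusted p = 0.345), with 5 of 6 CHL arrays below every control. LOC100157802, titled similar to tumor necrosis factor receptor superfamily member 21, differed by -0.62 ± 0.17 (adjusted p = 0.315). Without control 6, the differences of these 12 genes were between -1.86 and 2.36, and each had the same sign.

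**Figure D1:**
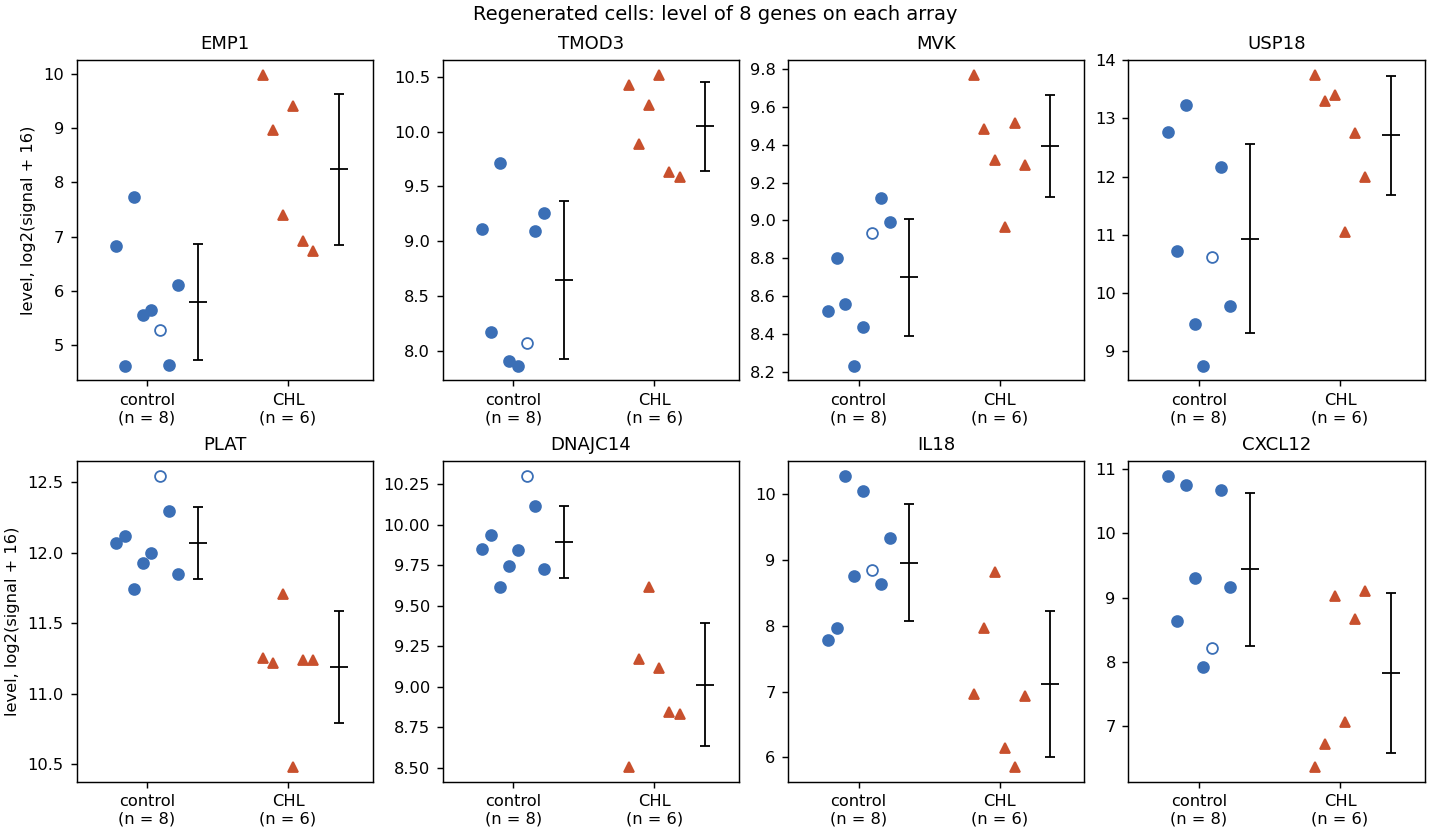
Level of 8 genes in regenerated cells, as log2(signal + 16) on the y axis, with 1 circle for each of 8 control arrays, 1 triangle for each of 6 CHL arrays and the mean ± SD beside them. The open circle is control replicate 6, and PLAT and DNAJC14 are the genes shown whose groups do not overlap.

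Several probe sets without a symbol had smaller p-values than any named gene. Ssc.19413.1.A1_at, an unnamed transcribed locus, ran from 4.11 to 7.13 in controls (median 5.15) and from 8.15 to 10.26 in CHL (median 8.72). All 6 CHL arrays lay above all 8 controls, and the difference was 3.54 ± 0.52, an 11.6-fold higher mean (adjusted p = 0.0693). Ssc.5870.2.A1_at did not overlap either, with a difference of 1.95 ± 0.32 (adjusted p = 0.0718).

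Ssc.3097.2.A1_a_at, which the deposited tables used here do not name, ran from 9.41 to 10.66 in controls and from 8.60 to 9.14 in CHL. The groups did not overlap, and the difference was -1.19 ± 0.19 (adjusted p = 0.0693). It was 1 of 2 probe sets called in native cells of the same diets, where it differed by -1.26 (adjusted p = 0.00925). Ssc.5587.1.A1_at differed by -2.03 ± 0.33 (adjusted p = 0.0693), with 5 of 6 CHL arrays below every control.

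Among probe sets with a title alone, Ssc.25162.1.S1_at for heterogeneous nuclear ribonucleoprotein A3, an RNA-binding protein, had medians of 6.78 in controls and 9.0 in CHL and a difference of 2.10 ± 0.40 (adjusted p = 0.144). Ssc.16410.3.S1_at, similar to the human sigma 1 opioid receptor of the endoplasmic reticulum, differed by 1.18 ± 0.23 (adjusted p = 0.148). Ssc.25255.2.S1_a_at, similar to human asparaginase like 1, differed by 1.10 ± 0.22 (adjusted p = 0.149), with no overlap between the groups. On the lower side, Ssc.9101.1.A1_at, similar to human protein tyrosine phosphatase non-receptor type 13, differed by -1.18 ± 0.29 (adjusted p = 0.265). Ssc.10426.1.S1_at, similar to a human subunit of translation initiation factor 3, differed by -0.73 ± 0.19, and Ssc.3180.1.S1_a_at, similar to human p53 binding protein 1, by -0.68 ± 0.16.

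The genes of cholesterol synthesis and uptake were the first group the feed could concern. All 8 measured of 29 listed genes were at or above the control mean in CHL, with a median difference of 0.29 against 0.02 over all probe sets, and 3 had an unadjusted p under 0.05 against 4.97% of all probe sets. The mean level of the 8 genes was 8.56, 8.93 and 9.27 in controls (lowest, median, highest) and 9.10, 9.27 and 9.59 in CHL. The highest controls reached into the CHL range, and the lowest CHL array lay above the control median. Without control 6, 7 of 8 were higher, with a median of 0.28, and against the artery-named controls 6 of 8, with a median of 0.37. When control 6 was left out of the artery-named controls, the median was 0.19.

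MVK encodes mevalonate kinase, an early step of the sterol pathway. Its level was 8.23, 8.68 and 9.12 in controls and 8.97, 9.40 and 9.77 in CHL. All CHL arrays but CHL 4 lay above every control. The difference was 0.69 ± 0.18, a 1.61-fold higher mean (adjusted p = 0.293), its other probe set differed by 0.56, and it was 0.38 against artery-named controls.

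ACAT2, which makes acetoacetyl-CoA in the cytosol, had medians of 10.73 in controls and 11.57 in CHL and a difference of 0.69 ± 0.27 (adjusted p = 0.499), and 0.37 against artery-named controls. Its other probe set differed by 1.68. INSIG1, the anchor that holds the SREBP escort protein in the endoplasmic reticulum, had medians of 6.01 and 6.56 and a difference of 0.79 ± 0.34 (adjusted p = 0.530).

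Of genes of cholesterol efflux and scavenging, 6 of 10 measured were higher in CHL, with a median difference of 0.22. Against artery-named controls it was 5 of 10 with a median of 0.050, and the median ran from 0.080 (without control 5) to 0.36 (without control 3) when 1 array was left out. NR1H3, the liver X receptor alpha, had medians of 10.12 in controls and 9.71 in CHL, with all CHL arrays below the control median and a difference of -0.59 ± 0.24 (adjusted p = 0.521). ABCA1, the pump that loads cholesterol onto apolipoprotein A-I, differed by 0.75 ± 0.45 (adjusted p = 0.617) and by 0.11 against artery-named controls and 0.50 without CHL 1.

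OLR1, also called LOX-1, which takes up oxidised lipoprotein, had medians of 5.63 in controls and 5.31 in CHL. One array stood apart, CHL 1 at 8.89, and the mean difference was 0.21 ± 0.54 (adjusted p = 0.918). Without CHL 1 the difference was -0.42 and against artery-named controls 0.37.

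In fatty acid synthesis, 5 of 9 measured genes were higher, with a median of 0.11, which ran from -0.026 (without control 8) to 0.23 (without control 3) when 1 array was left out. The median was 0.17 against artery-named controls (0.085 without control 6 too). SCD, the desaturase that makes oleate, had all 6 CHL arrays above the control median and a difference of 0.48 ± 0.21 (adjusted p = 0.530), which was 0.17 against artery-named controls. The phosphatidate phosphatase LPIN1 differed by 0.52 ± 0.22 (adjusted p = 0.530), and by 0.89 against artery-named controls. The desaturase FADS2 differed by 0.51 ± 0.25 (adjusted p = 0.545), and by 0.29 without CHL 1. FASN, fatty acid synthase, differed by 0.11 ± 0.37 (adjusted p = 0.936), by 0.84 against artery-named controls and by -0.15 without control 8.

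Fatty acid carriers and adipocyte genes were higher in 5 of 9, with a median of 0.14. Against artery-named controls 4 of 9 were higher and the median turned to -0.35, and without control 3 it was -0.039. CFD, complement factor D, had medians of 7.55 in controls and 9.53 in CHL and a difference of 1.53 ± 0.59 (adjusted p = 0.499). Against the 3 artery-named controls it was 0.20 (-0.75 without control 6 too). The regulator PPARG (-0.50 ± 0.53), the carrier FABP4 (-0.49 ± 0.73) and the lipase LPL (0.32 ± 0.27) had 95% intervals that include 0. Without CHL 1 PPARG was at -0.0099, without control 6 FABP4 was at -0.15, and without CHL 4 LPL was at 0.15. Against artery-named controls PPARG was at -0.90 and FABP4 at -1.12. PDK4, a kinase that turns cells from glucose to fatty acid use, differed by -0.95 ± 0.67 (adjusted p = 0.659), by -0.33 without CHL 1 and by -1.87 against artery-named controls. Of the fatty acid oxidation list, 5 of 12 were higher, with a median of -0.03. It was 0.059 without CHL 1 and -0.10 against artery-named controls, but 0.10 against those without control 6.

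Among interferon genes, all 22 measured of 48 genes were higher in CHL, from 0.12 for STAT2 to 1.86 for OAS1. Their median difference was 0.86 against 0.02 over all probe sets, and 3 had an unadjusted p under 0.05 against 4.97% of all probe sets. The mean level of the 22 genes was 9.02, 10.25 and 12.57 in controls and 9.95, 11.58 and 12.73 in CHL (lowest, median, highest). Both groups held high and low arrays. CHL 1, 2 and 3 and controls 1 and 3 were the 5 highest, and CHL 4 lay below the control median. All 22 were also higher without control 6, with a median of 0.86, and against artery-named controls, with a median of 1.40.

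USP18, which strips ISG15 from proteins and dampens interferon receptor signalling, ran from 8.75 over a median of 10.67 to 13.23 in controls and from 11.04 over 13.03 to 13.75 in CHL. All CHL arrays lay above the control median and 3 lay above every control. The difference was 1.77 ± 0.67, a 3.42-fold higher mean, with an adjusted p of 0.491. DDX58, the RNA sensor RIG-I, had medians of 10.52 and 12.70 and differed by 1.62 ± 0.72 (adjusted p = 0.530), and its other probe set differed by 2.39.

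MX2, an interferon-induced GTPase, differed by 1.47 ± 0.65 (adjusted p = 0.530), and its relative MX1, which blocks influenza virus, by 0.93 ± 0.53 (adjusted p = 0.603). IRF7, the factor that raises interferon alpha production, differed by 1.21 ± 0.76 (adjusted p = 0.62).

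In antigen presentation, 12 of 13 measured genes were higher, with a median of 0.33. The median was 0.089 without CHL 1, 0.49 without CHL 4 and 0.54 against artery-named controls. The class I gene SLA-7 had medians of 8.10 in controls and 8.97 in CHL and a difference of 0.85 ± 0.37 (adjusted p = 0.530), and TAP1, which loads peptides for class I molecules, differed by 0.71 ± 0.47 (adjusted p = 0.640), by 0.44 without CHL 1 and by 1.14 against artery-named controls. SLA genes resemble each other, so their probe sets may share signal. PSME2, a subunit of the proteasome activator induced by interferon gamma, differed by 0.69 ± 0.43 (adjusted p = 0.62), and by 1.04 without CHL 4.

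Cytokine, chemokine and adhesion genes were higher in 18 of 23, with a median of 0.68. The median was 0.255 without CHL 1 and 0.40 against artery-named controls without control 6, and the count ran from 16 to 20 when 1 array was left out. No member had an unadjusted p under 0.05 on the higher side and 2, IL18 and CXCL12, had one on the lower side, against 4.97% and 4.26% of all probe sets. The mean level of the list was 8.67, 8.84 and 11.88 in controls and 9.06, 9.83 and 11.58 in CHL. Controls 2, 4, 5, 6 and 8 lay between 8.67 and 8.88, below all CHL arrays, and controls 1, 3 and 7 lay at 10.63 or above.

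SELE, the adhesion receptor E-selectin, ran from 8.41 over a median of 9.81 to 13.63 in controls and from 9.70 over 11.47 to 13.47 in CHL, a difference of 1.01 ± 0.87 (adjusted p = 0.722), which was 0.65 without CHL 1. IL6, a cytokine of the acute phase response, had medians of 7.85 and 10.15 and a difference of 1.11 ± 1.26 (adjusted p = 0.789), which was 0.23 without CHL 1, 1.83 without control 3 and 1.71 against artery-named controls. Both genes spread over several log2 units within each group. VCAM1, the adhesion receptor for monocytes, differed by 0.32 ± 0.19 (adjusted p = 0.611), and ICAM1, that for neutrophils, by 0.20 ± 0.28 (adjusted p = 0.834), and by -0.17 against artery-named controls and 0.045 without CHL 1.

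CXCL12 encodes the chemokine SDF-1, which draws in cells that carry CXCR4. It was 7.92, 9.23 and 10.90 in controls and 6.36, 7.87 and 9.11 in CHL (lowest, median, highest). All 6 CHL arrays lay below the control median and 3 lay below every control. The difference was -1.62 ± 0.58, a mean 3.07-fold higher in controls (adjusted p = 0.455), and its other probe set differed by -0.72. TLR4, the receptor for bacterial lipopolysaccharide, differed by -0.39 ± 0.22 (adjusted p = 0.601), and its 2 other probe sets by -0.23 and 0.40; against artery-named controls it was -0.10.

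The level of smooth muscle markers differed among the same arrays. The 5 arrays with the highest interferon level were also the 5 with the lowest level of smooth muscle markers. This split was not particular to smooth muscle. The same 5 arrays were the highest for antigen presentation genes, which share B2M and TAP1 with the interferon list, and for proteasome genes. They were also the 5 lowest for collagen, basement membrane and integrin genes. Why these lists split the same arrays was not tested. Control 3 stood at 12.57 for interferon genes and at 9.17 for smooth muscle markers, the lowest of all 14 arrays, and CHL 1 at 12.73 and 9.57. Of 21 smooth muscle markers 10 were measured and 4 were higher in CHL, with a median of -0.05, and the mean level of the list ran from 9.17 to 11.5 in controls and from 9.57 to 11.2 in CHL. Of 22 leukocyte markers 5 were measured and all 5 were higher, with a median of 0.35, and their mean level ran from 5.12 to 6.54 in controls and from 5.31 to 7.33 in CHL, with CHL 4 the highest. SPI1, CD14, LCP1 and TYROBP were dim, with means from 4.91 to 5.82 in controls. LYZ, lysozyme, differed by 1.48 ± 0.89 (adjusted p = 0.619), and by 0.85 without CHL 4, and its other probe set differed by 0.65. Against artery-named controls 3 of 5 leukocyte markers were higher and the median was 0.02 (0.17 without control 6 too). With all controls but without CHL 4 the leukocyte median was 0.17. Smooth muscle markers were higher in 2 of 10 against artery-named controls, with a median of -0.30, and their median ran from -0.29 (without control 3) to 0.056 (without CHL 2). The part of smooth muscle cells and leukocytes in the interferon and cytokine values was not tested.

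**Figure D2:**
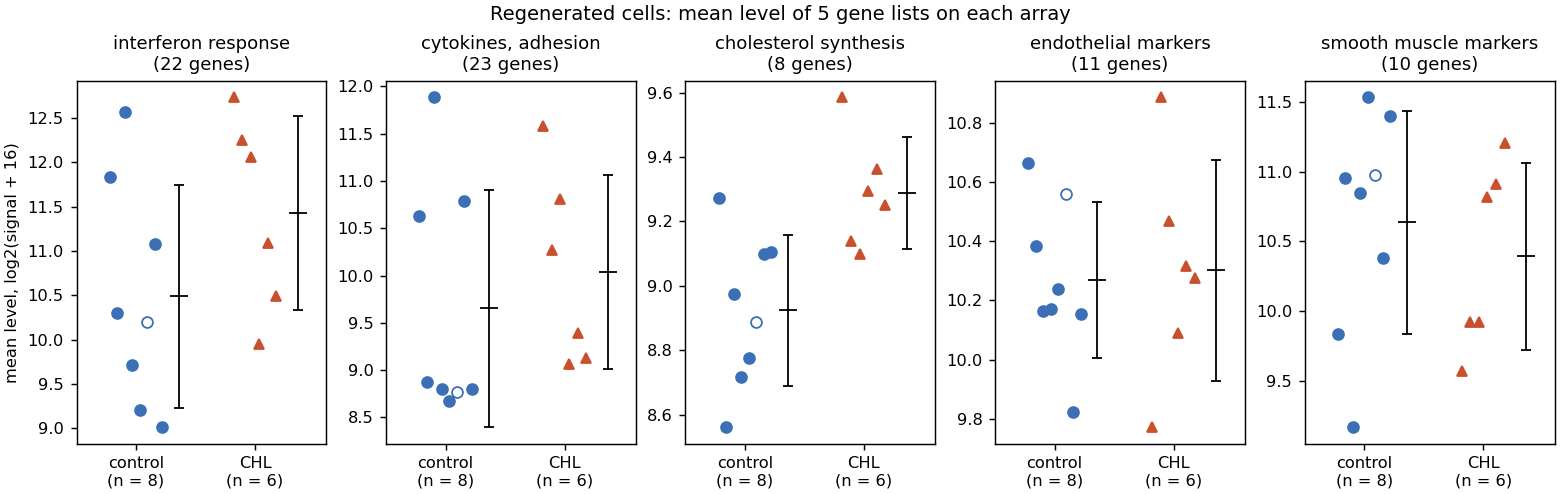
Mean level of 5 gene lists on each regenerated array, as log2(signal + 16), with circles for 8 controls, triangles for 6 CHL arrays, an open circle for control replicate 6 and the mean ± SD at the side. Control 3 is high for interferon genes (12.57) and low for smooth muscle markers (9.17).

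Genes of vascular tone were higher in 12 of 14 measured, with a median of 0.22. Against artery-named controls 9 of 14 were higher, with a median of 0.29 (0.13 without control 6 too). NOS3, the endothelial nitric oxide synthase, was 8.59, 9.99 and 10.79 in controls and 9.18, 9.67 and 10.59 in CHL. The CHL arrays lay within the control range. The difference was -0.05 ± 0.31 (95% interval -0.71 to 0.62, adjusted p = 0.969), and it was 0.45 against artery-named controls. EDN1, the vasoconstrictor endothelin 1, differed by -0.07 ± 0.25 (95% interval -0.60 to 0.45, adjusted p = 0.939), by -0.22 against artery-named controls and by 0.11 without CHL 3.

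ACE, the enzyme that makes angiotensin II and degrades bradykinin, was 6.07, 6.47 and 6.73 in controls and 6.72, 6.79 and 7.59 in CHL. Of the 6 CHL arrays 5 lay above every control. The difference was 0.60 ± 0.18, a 1.52-fold higher mean (adjusted p = 0.375).

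GUCY1B3, a subunit of the nitric oxide receptor guanylate cyclase, differed by 0.76 ± 0.44 (adjusted p = 0.611), and by 1.29 against artery-named controls and 0.50 without control 6. ARG2, the arginase that competes for the substrate of nitric oxide synthase, differed by 0.70 ± 0.43 (adjusted p = 0.621) and by 0.34 without CHL 1, and CAV1, the coat protein of caveolae that binds NOS3, by 0.44 ± 0.28 (adjusted p = 0.62). CALCB, a vasodilator peptide of the calcitonin family, differed by 0.14 ± 0.40 (adjusted p = 0.925), by -0.24 against artery-named controls and by -0.038 without control 7. Of prostanoid genes 6 of 8 were higher, with a median of 0.08. PTGS1, the constitutive cyclooxygenase, differed by 0.46 ± 0.70 and TBXAS1, thromboxane synthase, by -0.39 ± 0.39. Against artery-named controls PTGS1 was at 0.92, without CHL 1 at 0.052, and TBXAS1 was at -0.20 without control 5.

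Among endothelial markers, 7 of 11 were higher, with a median of 0.07. It was 0.34 against artery-named controls (0.18 without control 6 too) and -0.034 without control 7. CDH5, the cadherin of endothelial junctions, ran from 13.05 to 13.46 in controls and from 12.79 to 13.27 in CHL, a difference of -0.18 ± 0.14 (adjusted p = 0.694), and -0.12 without CHL 1. VWF, the carrier of factor VIII, was dim, with means of 6.00 in controls and 6.30 in CHL. It differed by 0.31 ± 0.19 (adjusted p = 0.622), and by 0.20 without CHL 1.

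ACTA2, smooth muscle actin, was 7.70, 12.98 and 14.21 in controls and 7.81, 9.41 and 13.26 in CHL. Controls 1, 3 and 7 and CHL 1, 2, 3 and 5 lay at 10.43 or below, and the other 7 arrays lay at 12.32 or above. The difference was -1.81 ± 1.10 (95% interval -4.14 to 0.53, adjusted p = 0.621). The actin-binding protein TAGLN (0.08 ± 0.40) and the myosin light chain MYL9 (-0.37 ± 0.53) had differences under their SE, and PLN, the inhibitor of the sarcoplasmic calcium pump, differed by -0.45 ± 0.32. Against artery-named controls TAGLN was at -0.27 and MYL9 at -1.12, and without control 6 MYL9 was at -0.085.

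Genes of the TGF-beta family and mesenchymal transition were higher in 8 of 15, with a median of 0.04 that was -0.0083 against artery-named controls and -0.056 without control 3. TGFB1, the main ligand, had medians of 8.48 in controls and 8.06 in CHL, all 6 CHL arrays lay below the control median, and the difference was -0.59 ± 0.23 (adjusted p = 0.499). INHBA, the chain of activin A, differed by -0.39 ± 0.18 (adjusted p = 0.530). SMAD1, which carries bone morphogenetic protein signals, differed by 0.40 ± 0.18 (adjusted p = 0.530).

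Collagen, basement membrane and integrin genes were lower in CHL in 16 of 23, with a median of -0.09 that was -0.23 against artery-named controls and -0.24 without control 3, and 3 had an unadjusted p under 0.05 on the lower side against 4.26% of all probe sets. ITGAV, the alpha V integrin that binds vitronectin, was 11.07, 12.24 and 12.62 in controls and 9.82, 11.31 and 12.21 in CHL. All CHL arrays lay below the control median. The difference was -0.82 ± 0.33 (adjusted p = 0.513), and -0.55 without CHL 2. GPC4, a heparan sulfate proteoglycan of the cell surface, differed by -1.13 ± 0.51 (adjusted p = 0.530), and COL4A2, a chain of basement membrane collagen, by -0.53 ± 0.25 (adjusted p = 0.538) and by -0.19 against artery-named controls.

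FN1, fibronectin, had all 6 CHL arrays below the control median and a difference of -0.33 ± 0.16 (adjusted p = 0.553), and -0.21 against artery-named controls. POSTN, periostin, ran from 4.86 to 10.57 in controls and from 4.18 to 9.96 in CHL. Its difference was 0.49 ± 0.96 (adjusted p = 0.886), -0.095 without CHL 4 and 0.97 against artery-named controls. MMP7, matrilysin, differed by -1.11 ± 0.60 (adjusted p = 0.587), and by -2.15 against artery-named controls and -0.58 without CHL 1. ADAM17, the sheddase of tumour necrosis factor, differed by 0.41 ± 0.44 (adjusted p = 0.777), by 0.18 without CHL 1 and by 0.91 against artery-named controls, and its other probe set by -0.04. Matrix remodelling genes as a list were higher in 6 of 13, with a median of -0.02 that was -0.22 against artery-named controls and -0.26 without CHL 2.

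In coagulation and fibrinolysis, 8 of 14 measured genes were higher, with a median of 0.03 that ran from -0.032 (without CHL 2) to 0.22 (without CHL 4). The median was 0.11 against artery-named controls (0.036 without control 6 too). An unadjusted p under 0.05 was reached by 3 genes, all lower, against 4.26% of all probe sets on the lower side. Besides PLAT these were PROS1 and CD55. PROS1 encodes protein S, the cofactor of activated protein C, and had medians of 12.15 in controls and 11.42 in CHL. All CHL arrays lay below the control median and the difference was -0.66 ± 0.25 (adjusted p = 0.494). CD55, which speeds the decay of complement convertases, differed by -0.96 ± 0.42 (adjusted p = 0.530), and by -0.62 without CHL 1.

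F5, coagulation factor V, differed by -0.60 ± 0.36 (adjusted p = 0.616), and by -0.11 against artery-named controls. TFPI, the inhibitor of the tissue factor pathway, differed by -0.04 ± 0.36 (adjusted p = 0.975), by 0.47 against artery-named controls and by 0.15 without control 1.

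Cell cycle genes were higher in all 14 measured of 48, from 0.07 to 0.80, with a median of 0.33. Without control 6 it was 13 of 14, and when 1 array was left out the count ran from 11 (without control 3) to 14 and the median from 0.15 (without CHL 4) to 0.47. None had an unadjusted p under 0.05, and the mean level of the list was 8.52, 9.14 and 9.94 in controls and 8.78, 9.66 and 10.12 in CHL. The groups overlapped over most of their range. BIRC5, survivin, differed by 0.53 ± 0.31 (adjusted p = 0.610), and CCNB1, cyclin B1, by 0.34 ± 0.40 (adjusted p = 0.800), with 0.13 without control 3 and 0.62 without CHL 3. UBE2C, which serves the anaphase-promoting complex, differed by 0.40 ± 0.26 (adjusted p = 0.635), and by 0.20 without control 3.

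Apoptosis and senescence genes were higher in 9 of 13, with a median of 0.24. It was 0.099 without CHL 1, 0.52 without control 3 and 0.36 against artery-named controls (0.12 without control 6 too). PMAIP1, the BH3-only protein NOXA, had all CHL arrays above the control median and differed by 1.12 ± 0.45 (adjusted p = 0.502).

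Growth factor genes were higher in 10 of 17, with a median of 0.11 that ran from 0.030 (without control 5) to 0.19 (without control 3). IGF2, insulin-like growth factor 2, was 8.09, 8.54 and 9.19 in controls and 8.85, 9.26 and 9.80 in CHL. All 6 CHL arrays lay above the control median. The difference was 0.67 ± 0.22 (adjusted p = 0.434) and 0.41 against artery-named controls, and its 4 other probe sets differed by 0.37 to 0.76. JAG1, a Notch ligand, differed by -0.52 ± 0.24 (adjusted p = 0.538), and the ligand KITLG by -0.01 ± 0.37 (adjusted p = 0.993), which was 0.42 against artery-named controls.

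SOD2, the manganese superoxide dismutase of mitochondria, had all 6 CHL arrays above the control median and a difference of 0.92 ± 0.44 (adjusted p = 0.543), with 1.24 and 1.56 for its other 2 probe sets. GPX3, a secreted glutathione peroxidase, differed by 0.09 ± 0.26 (adjusted p = 0.930), and by -0.45 against artery-named controls. Its other probe set differed by -0.72, so they disagree. SLC1A1, a glutamate and cysteine transporter, was 5.99, 10.48 and 11.05 in controls and 5.93, 7.43 and 9.0 in CHL. All CHL arrays lay below the control median. The difference was -2.03 ± 0.75, a mean 4.08-fold higher in controls (adjusted p = 0.472).

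Lists of general cell functions and of other cell types are given by their counts and medians. Antioxidant genes were higher in 10 of 13 measured, with a median of 0.13, and ribosomal proteins in 24 of 29, with 0.14. Proteasome genes were higher in 7 of 10 (0.18), heat shock and endoplasmic reticulum stress genes in 7 of 11 (0.03), and amino acid and other solute carriers in 5 of 8 (0.18). Oxidative phosphorylation genes were higher in 5 of 15 (-0.09) and glycolysis and hypoxia genes in 3 of 8 (-0.05). Fibroblast markers were higher in 5 of 9 (0.08) and cardiac and skeletal muscle markers in 1 of 3 (-0.40). Against artery-named controls the fibroblast median turned to -0.21 with 4 of 9 higher, but was 0.11 when control 6 was left out too. Against the same 3 artery-named controls the muscle median was -0.96 with 0 of 3 higher, the antioxidant median 0.0042 with 7 of 13 higher and the heat shock median 0.17. When 1 array was left out the medians ran from -0.095 to 0.13 for fibroblast markers (lowest without CHL 4), -0.64 to -0.081 for muscle (highest without CHL 4), 0.042 to 0.23 for ribosomal (lowest without CHL 1), 0.084 to 0.25 for proteasome (lowest without CHL 1) and 0.052 to 0.22 for solute carrier genes (lowest without CHL 1). They ran from -0.15 to 0.061 for oxidative phosphorylation (highest without CHL 4), from -0.092 to 0.011 for glycolysis (highest without CHL 1), from 0.0100 to 0.095 for heat shock (lowest without control 4) and from 0.079 to 0.18 for antioxidant genes (lowest without control 5).

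The same diets were set side by side in native cells of the untouched artery. In the 6 CHL and 8 control native cultures, 0 probe sets were higher (0%) and 2 lower (0.0111%) at an adjusted p of 0.05, and 2750 (15.3%) had an unadjusted p under 0.05, 5.93% of all being higher and 9.34% lower. Of all probe sets, 46.1% were higher in CHL. Of the 12 genes of smallest p in regenerated cells, 11 had the same sign in native cells, as had 54 of the 90 genes and probe sets given here and 56.5% of all probe sets. The 12 were chosen on p in cultures of the same animals, which have the same label styles. PLAT differed there by -0.74 (adjusted p = 0.149), DNAJC14 by -0.78 (adjusted p = 0.127), IL18 by -2.01 (adjusted p = 0.0865) and CXCL12 by -1.78 (adjusted p = 0.203). Both states come from the same animals per the design text, so they are not independent.

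Other groups had medians of different sign in the 2 states, though some of these lay near 0. Native medians were not refitted with arrays left out or by label style. Interferon genes had a median of -0.11 in native cells, with 8 of 22 higher, and cytokine and adhesion genes a median of -1.0, with 5 of 23 higher. Smooth muscle markers had a median of 0.85, with 10 of 10 higher. In regenerated cells theirs was -0.05, and 0.056 without CHL 2, so its sign is not settled there. Native levels of interferon genes were 11.6 ± 1.28 (SD, n = 8) in controls and 11.4 ± 1.04 (SD, n = 6) in CHL, and those of smooth muscle markers 9.56 ± 0.89 and 10.4 ± 0.58.

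The difference between the 2 diet differences was tested in 1 model with the animal as a block. No probe set passed (0% called in either direction, smallest adjusted p = 0.337), and 2593 (14.4%) had an unadjusted p under 0.05, 8.99% of all with a higher and 5.42% with a lower diet difference in regenerated cells. All 22 interferon genes and all 23 cytokine and adhesion genes had a diet difference that was higher in regenerated than in native cells, where 54.4% of all probe sets had one, with medians of 1.08 and 1.27. All 10 smooth muscle markers had a lower one, with a median of -0.81. ACTA2 differed by 2.25 in native and by -1.81 in regenerated cells, so that the gap was -4.06 ± 1.14 (adjusted p = 0.337). EMP1 had a gap of 1.99 ± 0.51 (adjusted p = 0.337), with 0.44 in native cells. ADAM17 had one of 1.49 ± 0.32 (adjusted p = 0.337), with -1.08 in native and 0.41 in regenerated cells. This ADAM17 probe set was dim (mean 5.68 in regenerated controls), and the gene's other probe set had the other sign in regenerated cells. For PLAT the gap was -0.14 ± 0.23, for IL18 0.17 ± 0.52 and for MVK 0.25 ± 0.15.

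**Figure D3:**
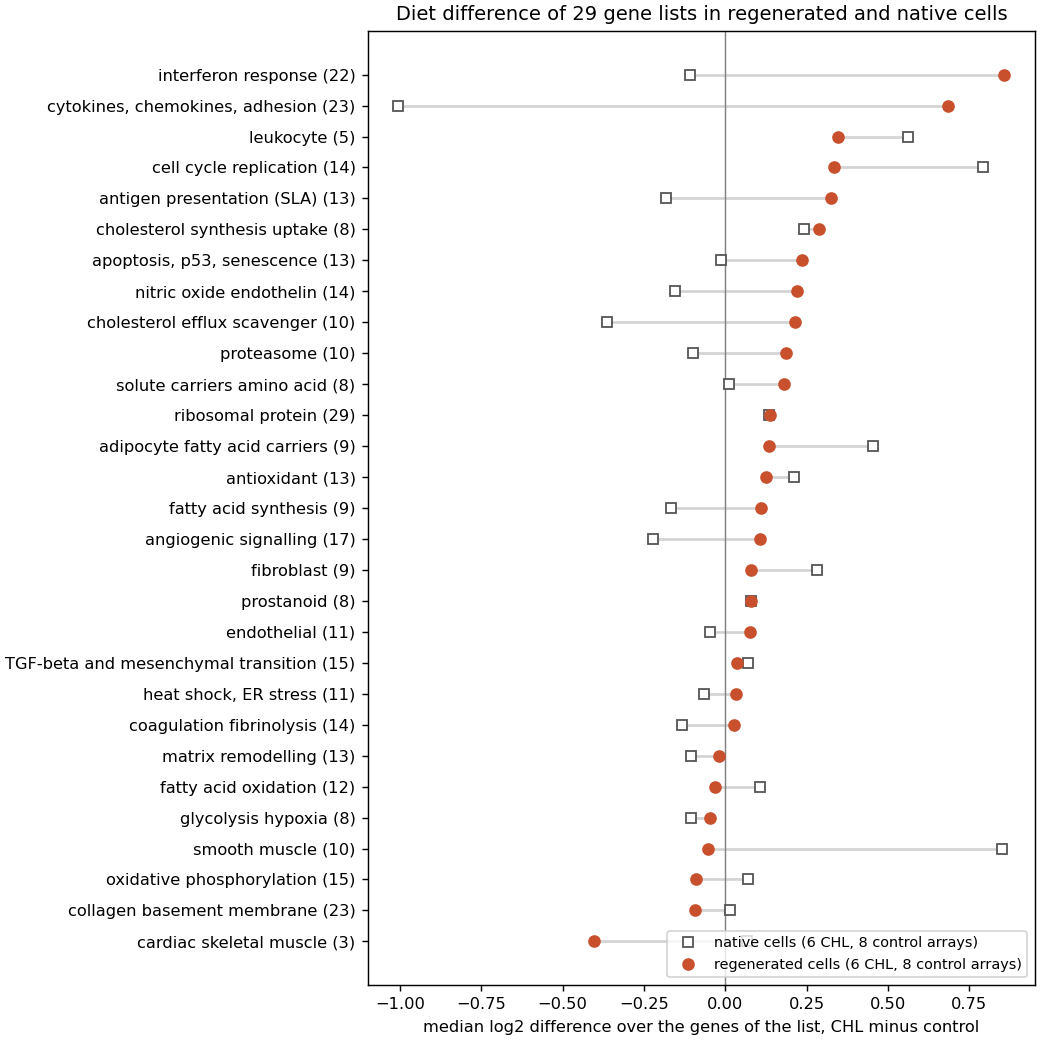
Median log2 difference, CHL minus control, over the measured genes of 29 lists (number of genes in brackets), with filled circles for regenerated cells and open squares for native cells. Interferon genes lie at 0.86 and -0.11, cytokine and adhesion genes at 0.68 and -1.0, and smooth muscle markers at -0.05 and 0.85.

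The 6 regenerated FO cultures share the 8 controls, so their values are set beside those of CHL without a comparison. One FO array, number 3, had 3'/5' ratios of 422 for actin and 59.9 for GAPDH. PLAT ran from 10.89 to 12.49 in FO (10.48 to 11.71 in CHL), EMP1 from 4.43 to 8.93 (6.74 to 9.98 in CHL) and IL18 from 7.25 to 10.68 (5.86 to 8.81 in CHL). The interferon level was 8.53, 11.74 and 12.36 in FO. Against the same controls, with control 6 kept, 0 probe sets were called in FO.

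The authors' deposited table, which they name a list of changed genes, gives a log2 fold for CHL against control regenerated cells. Of its probe sets 1503 were tested here, and 238 of these had an unadjusted p under 0.05 in limma. How these folds were computed is not given in the sources used here. Signs were the same as here for 1400, and the median size was 0.857 in the authors' deposited table and 0.504 here. For EMP1 the authors' deposited table gives 2.65 and for ACTA2 -3.04, where the values here were 2.44 and -1.81. TAGLN had opposite signs, -0.66 in the authors' deposited table and 0.08 here. The 2 sets of values come from the same study and are not independent, and the authors' list was already selected, so like signs are no separate evidence.

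**Figure D4:**
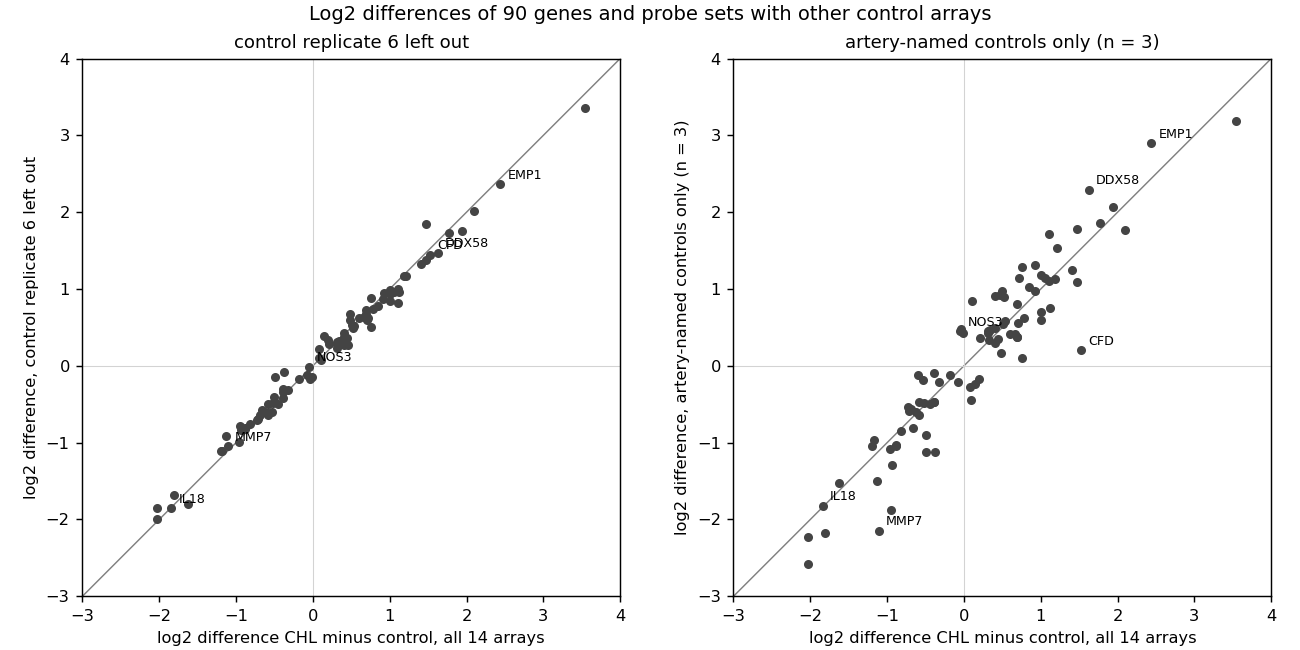
Log2 difference, CHL minus control, of 90 genes and probe sets given in the text, with all 14 arrays on the x axis and on the y axis without control replicate 6 (left) or with the 3 artery-named controls alone (right), and the line of equal values in grey. All 90 have the same sign without control 6, and 83 with artery-named controls, where CFD moves furthest.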

How the data were processed

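Total RNA was labelled with biotin and hybridised to 1-channel arrays, per the labels' protocols. The authors deposited linear signal intensities, made with MAS5 per the submitters' processing notes. Its version is not given in the sources used. The authors' deposited table of comparisons gives log2 folds. Gene symbols and titles came from the authors' deposited tables (12199 probe sets, 3053 with 1 symbol, 60 with several, 9086 with none), and symbols of 1413 probe sets were updated through RefSeq names of the pig assembly and a table of gene names. No column belonged to another sample.

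The 124 control probe sets of 24123 and those at or below the 25th percentile of mean level over all 40 arrays were left out, which left 17999. Values were taken as log2(signal + 16), so that changes of dim probe sets are understated. The comparison was fitted unpaired on the 14 arrays with limma 3.58.1 (lmFit, eBayes, two-sided) in R 4.3.3, adjusted by Benjamini-Hochberg, threshold 0.05. Native cells were fitted alike, and the difference of diet differences on 28 arrays with animal as a block. The fit was checked on simulated data. Replicates are animals, so p-values measure the spread between animals, and the number of arrays limits precision. Replicate numbers name different animals in the 2 groups and pair nothing here. Exact permutation tests of actin ratio, GAPDH ratio and median signal between the groups, over 3003 assignments, gave two-sided p = 0.305, 0.840 and 0.416.

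The text names genes by rule, with 1 probe set per symbol, that of the highest mean level. Named were the 6 smallest p-values per direction with a symbol, 3 with a title, 2 with neither, up to 3 members of each of 31 lists and 38 fixed genes, of which 34 were measured. Not all genes of the rule are reported here. OAS1, STAT2 and PECAM1 were chosen with their values in view. The members and lists were chosen with earlier results of these data known. Lists were described and not tested. Lists with under 3 measured genes (erythrocyte with 0, and lymphatic, pericyte and mesothelial markers with 1) were not described. The alternatives were other subsets of arrays, label style as a block, other pseudocounts, quantile normalization, other filters, a replicate block, wider fits, eBayes with trend and robust, and array weights.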

Additional observations from a re-analysis of the deposited data

Results flagged for a closer look

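In groups of this size, an array that lies far outside the rest of its group was looked for with Dixon's ratio. Of 244 groups tested 14 held such an array, and chance gives about 1 in 20, or 12.2. Control 6 had an actin 3'/5' ratio of 264, where the next control had 6.89, and a GAPDH ratio of 1005, where the next had 1.48.

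Control 3 was low for CD55 (6.99, next 8.20), TAGLN (10.5, next 12.4) and UBE2C (9.29, next 10.8), and its mean level of glycolysis and hypoxia genes was 10.4, where the next control had 10.8. Control 2 was low for INSIG1 (4.54, next 5.46). CHL 1 was high for OLR1 (8.89, next 5.47) and PMAIP1 (10.6, next 9.26), and low for fatty acid oxidation genes (9.38, next 9.75). CHL 4 was high for TLR4 (9.57, next 8.70) and low for oxidative phosphorylation genes (11.2, next 11.6). For coagulation and fibrinolysis genes, control 6 (9.98, next 10.4) and CHL 4 (9.99, next 10.4) were the lowest of their groups.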

How the results depend on the processing

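Of 90 genes and probe sets given in the text, 76 had the same sign under all 27 alternatives. The limma calls, 0 with all 14 arrays, were 1 with artery-named arrays only, 2 with those arrays but without control 6, 4 with a pseudocount of 64, 2 with the 50th percentile as filter and 5 with array weights, and 0 to 3 when 1 array was left out (3 without control 3 and 3 without control 8). Probe sets with an unadjusted p under 0.05, 1662 with all arrays, numbered 576 with artery-named arrays without control 6 and 2656 with array weights, and 1185 to 2363 when 1 array was left out. The replicate block gave 0 calls and 2676 probe sets with an unadjusted p under 0.05, but its numbers name different animals in the 2 groups and no pairing follows from them. With that replicate block EDN1 was 0.056 and FASN -0.22. With artery-named arrays only, and equally with label style as a block, CALCB was -0.24, GPX3 -0.45, ICAM1 -0.17, KITLG 0.42, NOS3 0.45, TAGLN -0.27 and TFPI 0.47, smooth muscle markers were higher in 2 of 10, and the heat shock median was 0.17. With artery-named arrays without control 6, CFD was -0.75, F5 0.063, GPX3 -0.25, KITLG 0.18, NOS3 0.82, TAGLN -0.34 and TFPI 0.27, smooth muscle markers were higher in 1, and list medians were -0.083 for TGF-beta, 0.15 for heat shock, -0.17 for antioxidant and -0.33 for matrix remodelling genes. Quantile normalization gave FASN -0.00060, NOS3 0.0087 and medians of -0.13 for TGF-beta and -0.076 for heat shock genes. A pseudocount of 1 gave KITLG 0.0017. Array weights gave OLR1 -0.032, POSTN -0.39, PTGS1 -0.057, TFPI 0.031 and a solute carrier median of 0.0050. The 50th percentile filter, which tests fewer genes, gave a leukocyte median of 1.48. The cause of the other shifts was not tested. The ranges when 1 array was left out were -0.038 to 0.39 for CALCB, -0.20 to 0.11 for EDN1, -0.15 to 0.28 for FASN, -0.026 to 0.22 for GPX3, -0.16 to 0.19 for KITLG, -0.22 to 0.091 for NOS3, -0.42 to 0.42 for OLR1, -0.10 to 1.06 for POSTN, -0.24 to 0.26 for TAGLN, -0.17 to 0.15 for TFPI, -0.056 to 0.095 for the TGF-beta list median, and 2 to 6 smooth muscle markers higher. Probe sets dim on the array have compressed differences on this scale, and 8 against 6 animals limit the precision.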
